A study of Mus musculus with 12 samples.

Results

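The 38 genes described here encode 17 integrin alpha chains, 8 integrin beta chains, 10 laminin chains and 3 linkers of the hemidesmosome (Dst, Plec and Cd151). They were taken by gene symbol from a table of 24537 mouse genes, and all 38 were found there. RNA was sequenced from 12 cultures of primary cells, 3 in each of 4 groups, and per the labels each group has 1 culture from each of the same 3 mice. All mice were of the strain Pdgfra-creERxLSL-tdTomato, a reporter line in which an inducible Cre driven by Pdgfra can switch on a red fluorescent protein in Pdgfra-expressing cells, so every group carries both alleles. ADSCs are Pdgfra (+) stromal cells grown out of subcutaneous fat in DMEM with serum. In vitro iSEPs (induced stratified epithelial progenitor cells) are epithelial cells into which Pdgfra (+) ADSCs had been turned in culture. In vivo iSEPs were cultured from epithelial tissue that Pdgfra (+) ADSCs had formed within the animal. Keratinocytes were cultured from back skin. The iSEPs and keratinocytes were kept in a keratinocyte medium without serum, so the medium differs in every comparison with ADSCs and its part cannot be told apart from that of the cell type. The agents used for the conversion and the ages of the mice are not given in the sources used here.

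Integrins are pairs of 1 alpha and 1 beta chain that span the cell membrane and hold the cell to the matrix around it. Laminins are cross-shaped trimers of an alpha, a beta and a gamma chain that build the basement membrane, the sheet under every epithelium. In skin the basal keratinocyte stands on a laminin made with Lama3 and Lamb3, which it holds through the integrin of Itga6 and Itgb4 in hemidesmosomes and through the integrin of Itga3 and Itgb1 in focal contacts. Inside the cell, Dst and Plec tie the hemidesmosome to keratin filaments, and the tetraspanin Cd151 gathers laminin-binding integrins in the membrane. Stromal cells instead hold collagen and fibronectin, mostly through integrins that contain Itgb1 or Itgav.

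Promoter sequences are shown for 4 genes that rose or fell strongly between ADSCs and epithelial cells, to let their letters be compared. They are the 250 bases before the RefSeq gene start in GRCm38.p6, the assembly also called mm10, 5′ to 3′ on the strand of the gene. Capitals mark a match to the motif GCCNNNGGC of the TFAP2 family of epithelial factors, and no other capitals were used. Lamb3 lies at chr1:193301993-193302242 on the plus strand, Itgb6 at chr2:60673694-60673943 on the minus strand, Itga2 at chr13:114932101-114932350 on the minus strand and Itga11 at chr9:62677605-62677854 on the plus strand.
Lamb3: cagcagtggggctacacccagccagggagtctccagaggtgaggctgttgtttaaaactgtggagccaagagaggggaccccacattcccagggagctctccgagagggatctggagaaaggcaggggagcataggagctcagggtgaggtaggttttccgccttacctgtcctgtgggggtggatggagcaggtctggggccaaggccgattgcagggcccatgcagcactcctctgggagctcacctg
Itgb6: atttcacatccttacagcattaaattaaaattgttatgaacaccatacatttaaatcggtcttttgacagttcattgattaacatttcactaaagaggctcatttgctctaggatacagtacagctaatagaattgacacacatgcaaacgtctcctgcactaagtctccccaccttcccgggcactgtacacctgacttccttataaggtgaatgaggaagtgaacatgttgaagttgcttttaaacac
Itga2: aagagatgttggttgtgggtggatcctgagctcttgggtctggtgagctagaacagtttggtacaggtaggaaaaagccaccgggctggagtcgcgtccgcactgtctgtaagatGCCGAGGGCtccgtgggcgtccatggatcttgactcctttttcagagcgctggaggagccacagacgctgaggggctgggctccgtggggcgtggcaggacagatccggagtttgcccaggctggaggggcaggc
Itga11: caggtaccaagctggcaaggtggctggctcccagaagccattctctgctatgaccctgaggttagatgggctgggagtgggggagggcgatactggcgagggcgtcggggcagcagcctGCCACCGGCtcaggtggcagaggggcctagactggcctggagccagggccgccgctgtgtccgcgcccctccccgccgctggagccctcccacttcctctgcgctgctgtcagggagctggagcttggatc
The TFAP2 letters begin 135 bases before the start in Itga2, a gene higher in epithelial cells, and 131 bases before it in Itga11, a gene higher in ADSCs. The window of Itgb6 is poor in G and C (38%), and that of Itga11 is rich in them (68.4%). For 24 of the 38 genes the set of RefSeq windows used here held a window that fitted the expression table. Its start lay within 100 bases of the transcript start listed there. Itga9 had a window only at a more distant start. The remaining genes, among them Itga6, Itgb4 and Lama3, had no window in the set. Both strands were searched, and matches of different motifs may overlap. The TFAP2 letters stood in 5 of the 24 windows and in 13.7% of 32851 windows of all genes. The AP-1 letters TGANTCA stood in 1 of 24 (6.7% of all), the GRHL letters AACNGGTT in 1 of 24 (1.8%), the E-box CACGTG in 0 of 24 (6.0%) and the loose p53 family motif in 17 of 24 (63.5%). These matches describe letters in a window and do not show that a factor binds there.

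Values are FPKM, fragments per kilobase of transcript scaled to library size, which scale for gene length and depth and so allow levels of different genes to be set side by side. Between 21020000 and 27780000 reads per library fell in listed genes. Stromal markers (Pdgfra, Vim, Col1a1, Pdgfrb and Thy1) summed to 3295 to 4067 FPKM in ADSCs. Their sums were 52.1 to 179 in in vitro iSEPs, 27.6 to 157 in in vivo iSEPs and 21.6 to 24.5 in keratinocytes. The sums of both iSEP groups thus lay above those of the keratinocytes, but outside ADSCs most of each sum was Vim. Mean Vim was 102 FPKM in the iSEPs made in vitro, 73.7 in those made in vivo and 18.9 in keratinocytes. For Pdgfra, Col1a1, Pdgfrb and Thy1 the iSEPs made in vivo had means of 0.569, 1.92, 0.328 and 1.09. Keratinocytes had higher means, at 0.835, 1.98, 0.429 and 1.20, and only the in vivo iSEPs of mouse 3 exceeded them. The iSEPs made in vitro had higher means of these genes than keratinocytes. Basal keratinocyte markers (Krt5, Krt14, Trp63, Cdh1 and Col17a1) summed to 11.1 to 12.3 FPKM in ADSCs and to 10059 to 23215 in the others, so the markers go with the labels of both kinds of cell. The in vivo iSEP culture of mouse 3 stood apart from the other 2 of its group: Krt5 was at 3410 FPKM there against 9804 and 9252, and Fn1 at 1039 against 39.7 and 75.9. In other genes the in vivo iSEP culture of mouse 1 stood apart: Acta2 was at 798 FPKM there against 2660 and 2943, and Tns1 at 4.0 against 26.0 and 24.8. Values without the library of mouse 3 are given beside several of the results. In the ADSC culture of mouse 2 the leukocyte gene Tyrobp was at 5.97 FPKM, against 0.28 and 0.832 in the other ADSCs and 0 in the other 9 libraries.

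Of the 38 genes 30 passed the filter on low values (1 FPKM or more in 3 or more of the 12 libraries), and 8 did not. Each gene was tested with limma on log2(FPKM + 1), together with all 12364 genes that passed, and is called at an adjusted p below 0.05. The differences below marked log2 are on this scale, with the standard error after ±, and folds are ratios of mean FPKM. Group values are mean FPKM ± SD over n = 3 cultures. An adjusted p above this value does not show that groups are equal.

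The epithelial groups held more RNA of the hemidesmosome integrin chains and of Lama3 and Lamb3 than ADSCs, and less of the collagen receptor chain Itga11 and of Lama4. In in vitro iSEPs 9 of the 30 genes were higher than in ADSCs (32.1% of all genes tested were) and 16 were lower (21.7%). In vivo iSEPs had 10 higher (27.6%) and 15 lower (20.0%). Keratinocytes had 10 higher (32.8%) and 14 lower (20.7%). The 3 libraries of each group did not overlap for 25, 25 and 27 of the 30 genes, against 63.7%, 54.2% and 69.5% of all genes. In either direction, 53.8%, 47.6% and 53.5% of all genes were called in these 3 comparisons, which share the ADSC libraries. The median log2 difference of the 30 genes stood at -1.11, -0.63 and -0.61 in these comparisons, and that of all genes tested at 0.15, 0.14 and 0.18. Centring each library on its median changes the share of all calls that are higher from 59.7% to 47.3%, from 57.9% to 48.1% and from 61.4% to 46.8%. In these bulk samples fewer cells of a type and less RNA per cell cannot be told apart.

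**Figure D1:**
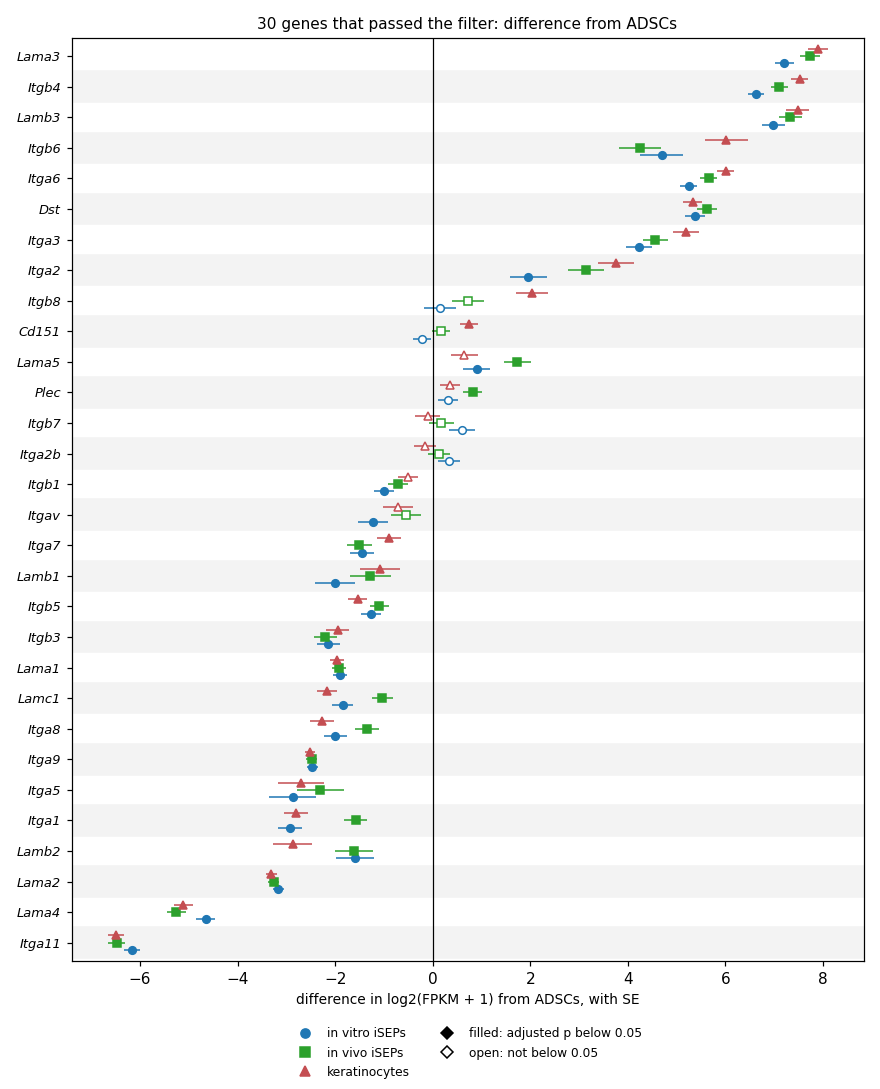
Difference from ADSCs in log2(FPKM + 1) on the x axis, with its standard error, for the 30 genes that passed the filter; circles are in vitro iSEPs, squares in vivo iSEPs and triangles keratinocytes (n = 3 each), and filled symbols have an adjusted p below 0.05. Lama3, Itgb4 and Lamb3 lie farthest to the right, with differences of 6.63 to 7.89, and Itga11 lies farthest to the left, at -6.50 to -6.16.

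Of the 4 laminin-binding integrin chains Itga6, Itgb4 and Itga3 rose against ADSCs and Itga7 fell. Itga6, the alpha chain of the hemidesmosome integrin (chromosome 2, 71786939 to 71858427 in mm10, plus strand, 63.4% of the gene in GENCODE), was at 1.04, 0.96 and 0.902 FPKM in ADSCs of mice 1, 2 and 3. It was at 85.4, 90.9 and 51.2 in the iSEPs made in vitro, 92.5, 104 and 98.4 in those made in vivo and 133, 116 and 126 in keratinocytes. All 9 epithelial libraries lay far above the ADSCs. The rise was 78.4-fold in in vitro iSEPs (log2 5.24 ± 0.18, adjusted p = 2e-09), 101-fold in in vivo iSEPs (log2 5.66 ± 0.18, adjusted p = 1.16e-09) and 129-fold in keratinocytes (log2 6.0 ± 0.18, adjusted p = 6.62e-10).

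Its partner Itgb4 (chromosome 11, 115974725 to 116008411, plus strand) carries the long cytoplasmic tail to which plectin binds. It was at 0.315, 0.285 and 0.228 FPKM in ADSCs, 96.1, 162 and 126 in the iSEPs made in vitro, 159, 164 and 204 in those made in vivo and 217, 231 and 251 in keratinocytes. The mean rose 464-fold (log2 6.63 ± 0.17, adjusted p = 2.38e-10), 637-fold (log2 7.10 ± 0.17, adjusted p = 1.79e-10) and 845-fold (log2 7.52 ± 0.17, adjusted p = 1.62e-10) in the same order. In ADSCs the little Itga6 RNA outweighed Itgb4 by a ratio of 3.54 ± 0.358. In epithelial cells Itgb4 was the more abundant of the pair, with ratios of 0.619 ± 0.246, 0.566 ± 0.0771 and 0.539 ± 0.0618. Of the exon bases of Itgb4 9.62% overlap the gene B230344G16Rik on the opposite strand.

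Itga3, the alpha chain of the other laminin receptor of keratinocytes (chromosome 11, 95044475 to 95076811, minus strand), was already present in ADSCs at 3.04, 3.29 and 4.76 FPKM. It reached 90.4, 117 and 59.7 in the iSEPs made in vitro, 92.9, 99.3 and 139 in those made in vivo and 129, 179 and 209 in keratinocytes. The rises were 24.1-fold (log2 4.23 ± 0.27, adjusted p = 2.17e-07), 29.9-fold (log2 4.57 ± 0.27, adjusted p = 1.17e-07) and 46.6-fold (log2 5.19 ± 0.27, adjusted p = 3.9e-08). Itga7, the laminin receptor chain known from muscle, went the other way. It was at 4.54, 1.82 and 1.8 FPKM in ADSCs, with mouse 1 highest, and between 0.115 and 0.984 in the 9 other libraries. Its log2 differences were -1.46, -1.50 and -0.90 (adjusted p = 0.000506, 0.000458 and 0.0103). Without mouse 1 in both groups its call in keratinocytes was lost (adjusted p = 0.0564).

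**Figure D2:**
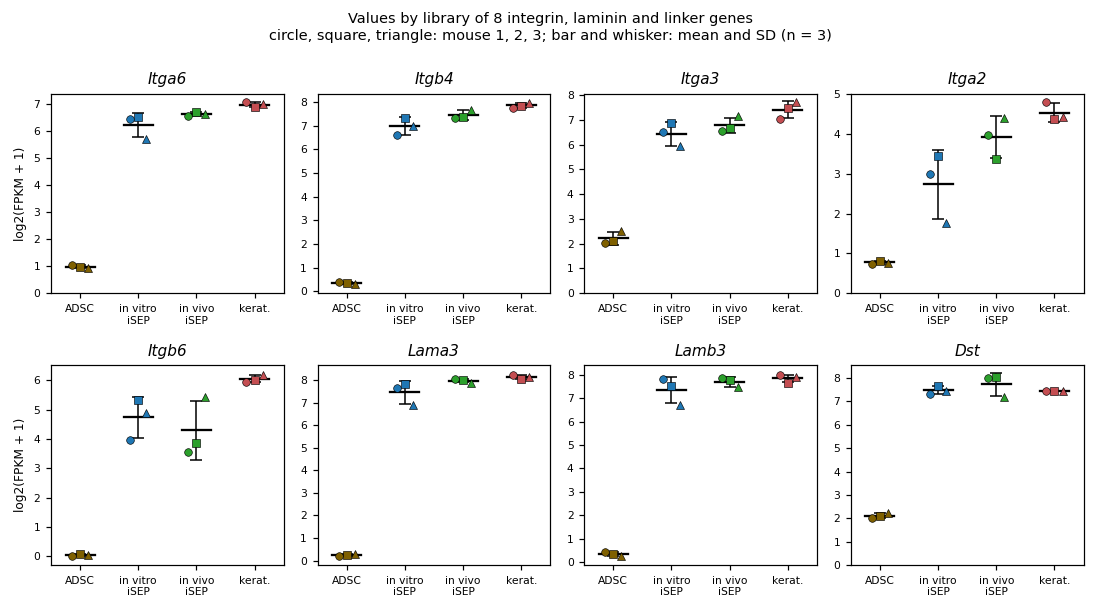
Values of 8 genes in log2(FPKM + 1) by group, with circles, squares and triangles for mice 1, 2 and 3 and bars for the mean and SD of 3 cultures. In every panel the ADSCs lie below all 9 other libraries, and in vitro iSEPs of mouse 3 are the lowest of their group for Itga6, Itga3, Itga2, Lama3 and Lamb3.

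The 4 collagen-binding chains moved in different directions. Itga11, a receptor for fibrillar collagen in fibroblasts (chromosome 9, 62677855 to 62783979, plus strand), was at 115, 86.5 and 75.4 FPKM in ADSCs and at 0.079, 0.429 and 0.37 in in vitro iSEPs. It did not pass 0.038 FPKM in keratinocytes or in vivo iSEPs, which is at most 6 reads in a library, and the keratinocytes of mouse 3 had 0. The groups are far apart, with log2 differences of -6.16 ± 0.17, -6.48 ± 0.17 and -6.50 ± 0.17 from ADSCs (adjusted p = 3.43e-10, 2.95e-10 and 2.4e-10). In its low groups a fold would rest on a few reads and is not given.

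Itga1, a receptor for basement membrane collagen (chromosome 13, 114958081 to 115101964, minus strand), was at 8.99, 8.28 and 8.91 FPKM in ADSCs. It was at 0.177, 0.623 and 0.095 in the iSEPs made in vitro, 1.5, 3.26 and 2.23 in those made in vivo and 0.892, 0.151 and 0.235 in keratinocytes. The in vivo iSEPs thus lay between the ADSCs and the other 2 groups in all 3 libraries. The log2 differences from ADSCs were -2.93 ± 0.24, -1.58 ± 0.24 and -2.81 ± 0.24 (adjusted p = 1.95e-06, 0.000258 and 2.67e-06).

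Itga2, the collagen receptor chain of epithelia and platelets (chromosome 13, 114835912 to 114932041, minus strand), moved in the opposite direction to its neighbour Itga1. It was at 0.674, 0.764 and 0.693 FPKM in ADSCs, 6.92, 9.86 and 2.41 in the iSEPs made in vitro, 14.8, 9.3 and 20.1 in those made in vivo and 26.9, 19.7 and 20.2 in keratinocytes. The in vitro iSEPs of mouse 3 were the lowest of the 9, yet above every ADSC library. The rises were 9-fold (log2 1.96 ± 0.37, adjusted p = 0.00108), 20.7-fold (log2 3.14 ± 0.37, adjusted p = 3.8e-05) and 31.4-fold (log2 3.75 ± 0.37, adjusted p = 8.42e-06). Itga10, the collagen receptor chain of cartilage, stayed below the filter. Its highest value was 0.927 FPKM in an in vitro iSEP library, and 34.5% of its exon bases lie in a same-strand gene, Gm42957.

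Of the 5 other alpha chains of adherent cells, Itga5 was the most abundant in ADSCs. Itga5 (chromosome 15, 103344286 to 103366791, minus strand) pairs with Itgb1 as the main fibronectin receptor. It was at 86.8, 135 and 207 FPKM in ADSCs, 12.8, 24.5 and 16.9 in the iSEPs made in vitro, 12.7, 23.1 and 61.3 in those made in vivo and 18.5, 21.4 and 19.7 in keratinocytes. No epithelial library reached the lowest ADSC value, and the in vivo iSEPs of mouse 3, at 61.3, came nearest. The log2 differences were -2.87 ± 0.48, -2.30 ± 0.48 and -2.70 ± 0.48 (adjusted p = 0.000404, 0.00206 and 0.000621). For in vivo iSEPs the difference was -2.90 without the library of mouse 3 (adjusted p = 7.33e-05), and without mouse 2 in both groups the call was lost (adjusted p = 0.0528).

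Itgav, the alpha chain shared by the vitronectin receptors (chromosome 2, 83724397 to 83806917, plus strand), was at 49.4, 53.2 and 67 FPKM in ADSCs. It was at 21.5, 31.4 and 18.8 in the iSEPs made in vitro, 26.9, 29.4 and 69.6 in those made in vivo and 36.3, 34.4 and 31.3 in keratinocytes. The in vivo iSEPs of mouse 3 exceeded every ADSC culture. Itgav fell in in vitro iSEPs (log2 -1.23 ± 0.31, adjusted p = 0.00624). For in vivo iSEPs the log2 difference was -0.54 ± 0.31 (adjusted p = 0.174), and without the library of mouse 3 it was -0.97 (adjusted p = 0.00215). In keratinocytes it was -0.71 ± 0.31 (adjusted p = 0.0763), and with median scaling -0.90 (adjusted p = 0.0401).

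Itga8 and Itga9, receptors for nephronectin and tenascin among other ligands, were low chains of ADSCs. Itga8 was at 5.29, 3.09 and 4.17 FPKM there, 0.316, 0.386 and 0.153 in the iSEPs made in vitro, 0.946, 1.94 and 0.416 in those made in vivo and 0.063, 0.083 and 0.04 in keratinocytes. Its falls were -1.99, -1.35 and -2.27 (log2), with adjusted p = 3.97e-05, 0.000821 and 1.47e-05. Itga9 was at 4.78, 4.47 and 5 FPKM in ADSCs and at most 0.062 elsewhere, with log2 differences of -2.47, -2.48 and -2.51 (adjusted p = 1.1e-08, 9.56e-09 and 8.22e-09). Itga4, a chain of leukocytes and some fibroblasts, did not pass the filter and had its highest value, 0.445 FPKM, in the ADSCs of mouse 1.

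**Figure D3:**
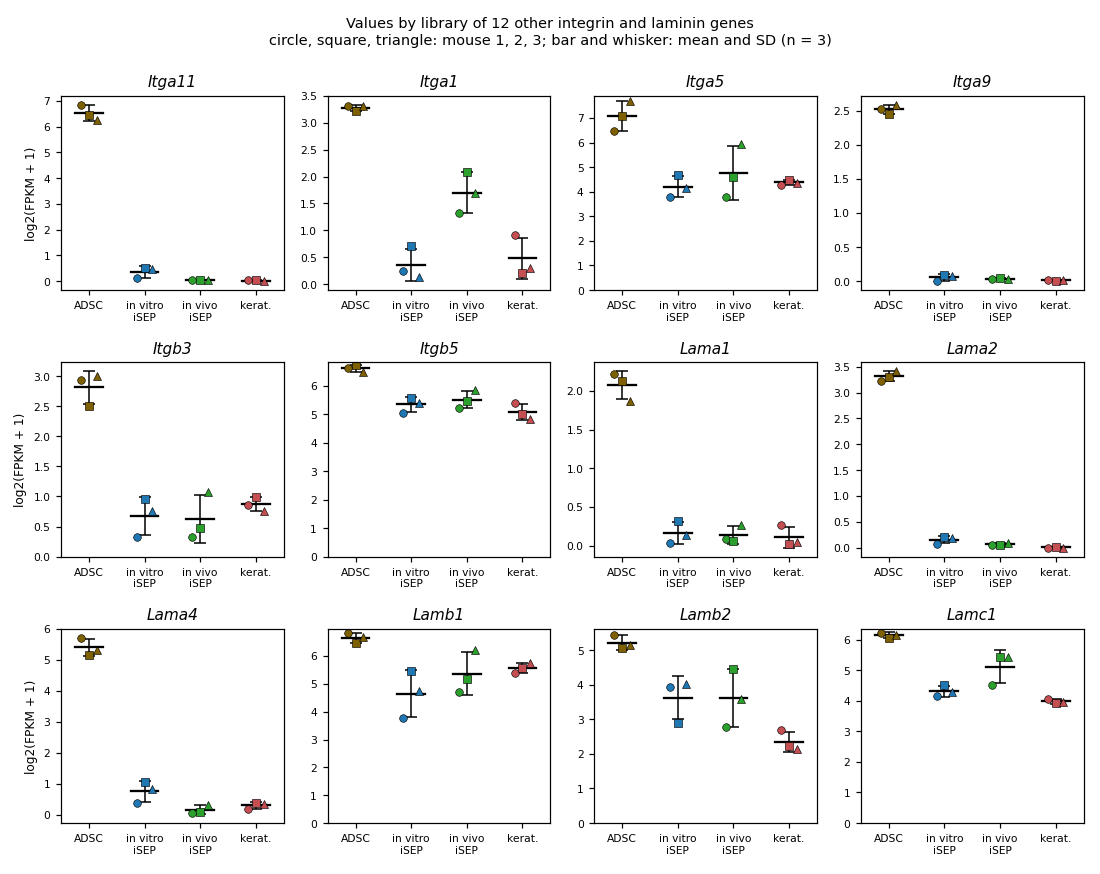
Values of 12 genes in log2(FPKM + 1) by group, with circles, squares and triangles for mice 1, 2 and 3 and bars for the mean and SD of 3 cultures. The ADSCs are the highest group in each panel. The in vivo iSEPs lie above the keratinocytes in all 3 cultures for Itga1 (1.5 to 3.26 against 0.151 to 0.892 FPKM), Lamc1 (21.7 to 42 against 14.2 to 15.8 FPKM) and Lamb2 (5.85 to 21.1 against 3.42 to 5.43 FPKM). The same order holds for Lama2 and Itga9, where both groups are at most 0.065 FPKM.

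Set within the family, the alpha chains of ADSCs were mostly Itga5 (43.7% ± 12.2 of the summed FPKM of the 17 alpha chains), Itga11 (29.9% ± 10.5) and Itgav (17.7% ± 0.151). In in vitro iSEPs Itga3 held 40.9% ± 1.39 and Itga6 35.1% ± 3.24. In in vivo iSEPs these shares were 36.7% ± 1.31 and 33.7% ± 7.54, and in keratinocytes 45.4% ± 7.33 and 33.5% ± 4.23. The summed alpha chain level was 319 ± 50.3 FPKM in ADSCs, 217 ± 63.3 in the iSEPs made in vitro, 303 ± 79.2 in those made in vivo and 376 ± 31.3 in keratinocytes. The shares of Itga3, Itga5, Itga6 and Itga11 in ADSCs did not overlap those of the other groups, whereas the Itgav share of in vivo iSEPs of mouse 3 (17.7%) lay within the ADSC range (17.5 to 17.8%). The sums were not tested.

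Itgb1, the common beta chain (chromosome 8, 128685654 to 128733579, plus strand), was the most abundant integrin RNA in every library. It was at 554, 891 and 744 FPKM in ADSCs, 429.7, 394 and 275 in the iSEPs made in vitro, 408, 438 and 467 in those made in vivo and 507, 502 and 498 in keratinocytes. All 9 epithelial libraries were below the lowest ADSC value, by a small margin in places. Itgb1 fell in in vitro iSEPs (log2 -0.99 ± 0.20, adjusted p = 0.00176) and in in vivo iSEPs (log2 -0.71 ± 0.20, adjusted p = 0.0139). In keratinocytes the difference was -0.51 ± 0.20 (adjusted p = 0.0548), and without the ADSCs of mouse 1, or with median scaling, it was called (adjusted p = 0.0161 and 0.0221). Leaving out the ADSCs of mouse 2 ended the call in in vivo iSEPs (adjusted p = 0.0625), as did leaving out mouse 2 or mouse 3 of both groups (0.213 and 0.0509). The call in in vitro iSEPs was lost without mouse 2 in both groups (0.0529).

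The beta chains that pair with Itgav changed in opposite directions. Itgb6, the epithelial partner that binds and activates latent TGF beta (chromosome 2, 60598292 to 60673693, minus strand), was at 0.007, 0.043 and 0.023 FPKM in ADSCs, which is 1, 6 and 3 reads. It was at 14.8, 39 and 28.6 in the iSEPs made in vitro, 10.8, 13.5 and 42.3 in those made in vivo and 60.9, 63.9 and 72.1 in keratinocytes. The keratinocytes were above every iSEP library. The log2 rises were 4.69 ± 0.44, 4.25 ± 0.44 and 6.02 ± 0.44 (adjusted p = 4.94e-06, 1.22e-05 and 6.56e-07). Without the in vivo iSEPs of mouse 3 their rise was 3.68 (adjusted p = 3.31e-06). The listed transcript spans 60.6% of the gene in GENCODE.

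Itgb5, a vitronectin receptor chain, was at 96.5, 104 and 88.6 FPKM in ADSCs, 31.9, 46.7 and 41.4 in the iSEPs made in vitro, 36.3, 43.4 and 55.9 in those made in vivo and 41.1, 30.8 and 27.3 in keratinocytes. It fell by 1.26, 1.10 and 1.53 on the log2 scale (adjusted p = 0.000246, 0.000766 and 5.72e-05). The ratio of Itgb6 to Itgb5 was 0.663 ± 0.188 in the iSEPs made in vitro, 0.455 ± 0.261 in those made in vivo and 2.07 ± 0.577 in keratinocytes, and did not pass 0.000412 in an ADSC library. So Itgb6 RNA exceeded Itgb5 RNA in the keratinocytes only, where the ratio ran from 1.48 to 2.64, and was below it in each iSEP library.

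Itgb3, the vitronectin receptor chain of platelets, osteoclasts and mesenchymal cells, was at 6.68, 4.67 and 7.05 FPKM in ADSCs and between 0.247 and 1.1 in the other libraries. Its log2 differences were -2.14 ± 0.23, -2.20 ± 0.23 and -1.95 ± 0.23 (adjusted p = 1.64e-05, 1.46e-05 and 3.25e-05). Itgb8, another receptor of latent TGF beta, was at 0.143, 0.033 and 0.058 FPKM in ADSCs, 0.329, 0.13 and 0.118 in the iSEPs made in vitro, 0.683, 0 and 2.34 in those made in vivo and 3.29, 4.02 and 3.03 in keratinocytes. It rose in keratinocytes (log2 2.04 ± 0.33, adjusted p = 0.00035). In in vitro iSEPs its difference was 0.14 (adjusted p = 0.741), and the sign turned with median scaling (-0.02) and quantile normalization (-0.04). For in vivo iSEPs it was 0.72 (adjusted p = 0.095), and without the library of mouse 2, where the gene was at 0, it was 1.14 (adjusted p = 0.00469). Without the library of mouse 3, the highest of its group at 2.34 FPKM, it was 0.27 (adjusted p = 0.313).

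Among the beta chains Itgb1 held 87.2% ± 2.65 of the summed FPKM in ADSCs, 64.7% ± 9 in the iSEPs made in vitro, 64.3% ± 3.41 in those made in vivo and 59.9% ± 1.34 in keratinocytes. Itgb4 made up 22.8% ± 5.27, 25.7% ± 0.774 and 27.8% ± 1.65 of it in the 3 epithelial groups and 0.0345% ± 0.0116 in ADSCs. Itgb1 remained the largest beta chain in each of the 12 libraries.

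The laminin alpha chains changed as strongly as the receptors. Lama3, the alpha chain of the epidermal laminin (chromosome 18, 12504199 to 12583012, plus strand), was at 0.159, 0.179 and 0.24 FPKM in ADSCs, 203, 227 and 117 in the iSEPs made in vitro, 265, 256 and 238 in those made in vivo and 304, 261 and 283 in keratinocytes. The means rose 946-fold (log2 7.21 ± 0.20, adjusted p = 3.74e-10), 1313-fold (log2 7.73 ± 0.20, adjusted p = 2.95e-10) and 1466-fold (log2 7.89 ± 0.20, adjusted p = 2.23e-10). In ADSCs 28 to 37 reads per library fell in the gene. The listed transcript is the shorter one, 78.8 kb of a gene that spans 249 kb in GENCODE, so reads of longer transcripts count only where they share its exons.

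The mesenchymal alpha chains went the opposite way. Lama4, found in vessels, fat and muscle (chromosome 10, 38965515 to 39110188, plus strand), was at 51.7, 35.1 and 39.1 FPKM in ADSCs and 0.292, 1.06 and 0.792 in in vitro iSEPs. It was at 0.036, 0.066 and 0.245 in in vivo iSEPs and 0.127, 0.299 and 0.266 in keratinocytes. The fall was 58.7-fold in in vitro iSEPs (log2 -4.65 ± 0.20, adjusted p = 1.07e-08) and 182-fold in keratinocytes (log2 -5.11 ± 0.20, adjusted p = 4.58e-09). In in vivo iSEPs, where 6, 12 and 47 reads fell in the gene, the log2 difference was -5.25 ± 0.20 (adjusted p = 4.06e-09) and no fold is given. Lama2, whose loss causes a muscular dystrophy (chromosome 10, 26981285 to 27616942, minus strand), was at 8.34, 8.91 and 9.67 FPKM in ADSCs and at most 0.145 in any other library. Its log2 differences were -3.16 ± 0.11, -3.26 ± 0.11 and -3.31 ± 0.11 (adjusted p = 2.3e-09, 1.85e-09 and 1.49e-09). Lama1, a chain of early embryonic basement membranes, was at 3.65, 3.38 and 2.65 FPKM in ADSCs and at most 0.244 elsewhere, with differences of -1.91, -1.93 and -1.96 (adjusted p = 9.1e-07, 8.78e-07 and 7.09e-07).

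Lama5, the broad epithelial and vascular chain (chromosome 2, 180176373 to 180225859, minus strand), was measured in all groups. It was at 6.53, 6.65 and 6.67 FPKM in ADSCs, 12.5, 17.1 and 10.8 in the iSEPs made in vitro, 16.7, 26.9 and 31.8 in those made in vivo and 16.7, 8.05 and 9.53 in keratinocytes. The 3 ADSC values lay close together, and all 9 other libraries were above them. Lama5 rose in in vivo iSEPs (log2 1.73 ± 0.28, adjusted p = 0.000349) and in in vitro iSEPs (log2 0.90 ± 0.28, adjusted p = 0.0175). In keratinocytes the difference was 0.65 ± 0.28 (adjusted p = 0.0701), and without the keratinocytes of mouse 2 it was 0.84 (adjusted p = 0.0391). The call in in vitro iSEPs was lost without their library of mouse 2 (adjusted p = 0.0686), without mouse 2 or 3 in both groups (0.154 and 0.0515), with median scaling (0.0502) and with quantile normalization (0.0518).

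Lama3 made up 0.323% ± 0.0931 of the summed laminin alpha FPKM in ADSCs, 92.4% ± 1.61 in the iSEPs made in vitro, 90.8% ± 3.01 in those made in vivo and 96.1% ± 1.21 in keratinocytes. Lama4 held 68.4% ± 4.54 and Lama2 15% ± 2.7 of it in ADSCs. The summed alpha chain level was 61 ± 8.43 FPKM in ADSCs, 197 ± 60.8 in the iSEPs made in vitro, 278 ± 7.11 in those made in vivo and 294 ± 25.8 in keratinocytes. Lama5 kept a share of 11% ± 1.54 in ADSCs, 7.05% ± 1.3 in the iSEPs made in vitro, 9.07% ± 2.95 in those made in vivo and 3.82% ± 1.22 in keratinocytes. The ratio of Lama3 to Lama5 ran from 7.49 to 15.9 in in vivo iSEPs and from 18.1 to 32.4 in keratinocytes, without overlap.

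**Figure D4:**
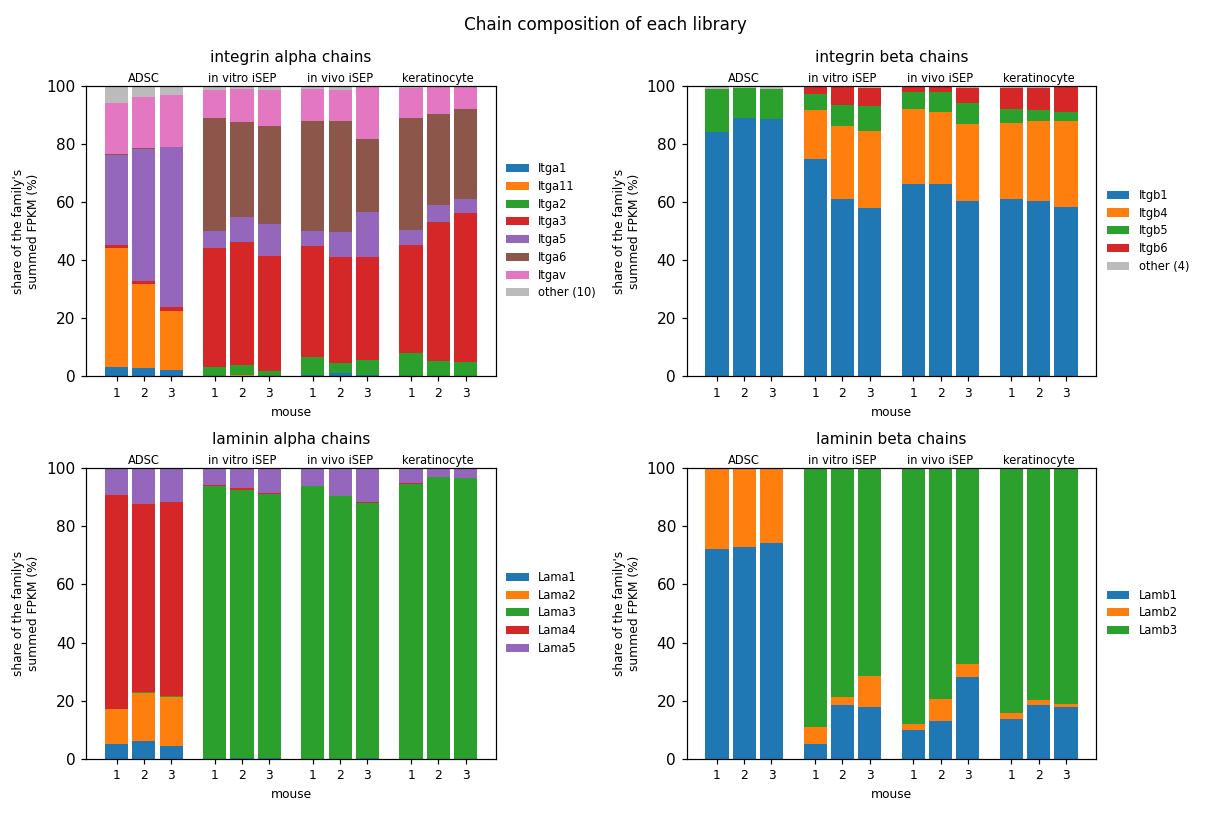
Share in percent of the summed FPKM of each chain family (y axis) in each library (x axis, mouse 1 to 3 in each group), for integrin alpha, integrin beta, laminin alpha and laminin beta chains. Lama3 fills 88 to 96.9% of the laminin alpha bars and Lamb3 67.5 to 89.2% of the laminin beta bars outside ADSCs, while Itgb1 stays the largest beta chain in all 12 libraries.

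Of the laminin beta chains, Lamb3 (chromosome 1, 193302243 to 193343878, plus strand; promoter shown above) partners Lama3. It was at 0.361, 0.29 and 0.206 FPKM in ADSCs, 224, 181 and 103 in the iSEPs made in vitro, 229, 219 and 174 in those made in vivo and 249, 201 and 237 in keratinocytes. The rises were 594-fold (log2 6.98 ± 0.23, adjusted p = 1.76e-09), 725-fold (log2 7.33 ± 0.23, adjusted p = 1.2e-09) and 802-fold (log2 7.48 ± 0.23, adjusted p = 9.53e-10). The ratio of Lama3 to Lamb3 was 1.1 ± 0.176 in the iSEPs made in vitro, 1.23 ± 0.116 in those made in vivo and 1.24 ± 0.0568 in keratinocytes, so the 2 partner chains stood at like levels per length. The listed transcript spans 30.6% of the Lamb3 gene in GENCODE.

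Lamb1, the common beta chain of many tissues (chromosome 12, 31265294 to 31329639, plus strand), was at 111, 87.2 and 101 FPKM in ADSCs. It was at 12.6, 42.7 and 25.5 in the iSEPs made in vitro, 25.3, 35.4 and 73 in those made in vivo and 40.8, 46.9 and 52.2 in keratinocytes. All 9 epithelial values were below the ADSCs, with the in vivo iSEPs of mouse 3 highest among them. The log2 falls were -2.0, -1.28 and -1.08 (adjusted p = 0.00182, 0.0249 and 0.0457). The call in keratinocytes was lost without any 1 of the 6 libraries (adjusted p = 0.0726 to 0.117) and with no filter on low values (0.0721). The call in in vivo iSEPs was lost without the in vivo iSEPs of mouse 1 or 2 or the ADSCs of mouse 1 or 3 (adjusted p = 0.0618 to 0.0928), and without the in vivo iSEPs of mouse 3 the difference was -1.70 (adjusted p = 0.00341).

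Lamb2, the beta chain of muscle and kidney basement membranes (chromosome 9, 108479862 to 108490530, plus strand), was at 42.8, 32.2 and 34.8 FPKM in ADSCs. It was at 14.4, 6.5 and 15.4 in the iSEPs made in vitro, 5.85, 21.1 and 11 in those made in vivo and 5.43, 3.7 and 3.42 in keratinocytes, and fell by 1.59, 1.61 and 2.87 on the log2 scale (adjusted p = 0.00565, 0.00597 and 0.000106). Without mouse 1 or mouse 3 in both groups the call in in vivo iSEPs was lost (adjusted p = 0.0725 and 0.056). Both iSEP groups had Lamb2 above the keratinocytes in every library. Lamb3 held 0.209% ± 0.05 of the summed beta chain FPKM in ADSCs and 79.9% ± 8.84, 78.3% ± 10.3 and 81.8% ± 2.32 in the epithelial groups. Lamb1 held 73.1% ± 1.09 in ADSCs and 13.7% ± 7.56, 17% ± 9.92 and 16.8% ± 2.58 in them.

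Lamc1, the gamma chain of most laminins (chromosome 1, 153218922 to 153332786, minus strand), was at 73.9, 65.3 and 70.6 FPKM in ADSCs, 16.6, 21.6 and 18.3 in the iSEPs made in vitro, 21.7, 42 and 41.7 in those made in vivo and 15.8, 14.2 and 14.4 in keratinocytes. In vivo iSEPs kept the highest level outside ADSCs. The log2 falls were -1.84 ± 0.21, -1.03 ± 0.21 and -2.17 ± 0.21 (adjusted p = 2.77e-05, 0.0021 and 7.59e-06). Lamc3, a minor gamma chain, did not pass the filter. It was at 0.021, 0.04 and 0.03 FPKM in ADSCs, 0.053, 0.142 and 0.116 in the iSEPs made in vitro, 0.175, 0.252 and 0.223 in those made in vivo and 0.073, 0.023 and 0.023 in keratinocytes.

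Of the 3 linkers Dst alone changed by more than a few-fold. Dst (dystonin, chromosome 1, 34160330 to 34183903, plus strand) encodes the hemidesmosome plaque protein that skin patients with bullous pemphigoid make antibodies against, and longer forms in nerve and muscle. It was at 3.03, 3.26 and 3.72 FPKM in ADSCs, 158, 204 and 176 in the iSEPs made in vitro, 255, 263 and 143 in those made in vivo and 174, 172 and 172 in keratinocytes. The rises were 53.8-fold (log2 5.37 ± 0.20, adjusted p = 4.2e-09), 66.1-fold (log2 5.63 ± 0.20, adjusted p = 2.76e-09) and 51.7-fold (log2 5.33 ± 0.20, adjusted p = 3.95e-09). The listed transcript has 24 exons over 23.6 kb, 5.89% of the 400.4 kb that GENCODE gives the gene, and 11.8% of its exon bases overlap Gm26788 on the opposite strand. Its values therefore describe this transcript and any that share its exons, not all of Dst.

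Plec, the plakin that binds Itgb4 (chromosome 15, 76170974 to 76199406, minus strand), was at 35.6, 28.1 and 46 FPKM in ADSCs, 41.5, 51.9 and 42.1 in the iSEPs made in vitro, 51.4, 62.4 and 81.5 in those made in vivo and 41.4, 46.2 and 51.6 in keratinocytes. It rose in in vivo iSEPs (log2 0.82 ± 0.20, adjusted p = 0.00575), a call lost without mouse 2 in both groups (0.0999). The listed transcript spans 46.2% of the Plec gene in GENCODE. In in vitro iSEPs the difference was 0.32 ± 0.20 (adjusted p = 0.201) and in keratinocytes 0.36 ± 0.20 (adjusted p = 0.155). Cd151 (chromosome 7, 141467362 to 141471481, plus strand) was at 104, 105 and 112 FPKM in ADSCs, 89.3, 106 and 81.8 in the iSEPs made in vitro, 107, 99 and 163 in those made in vivo and 156, 188 and 196 in keratinocytes. Keratinocytes were above all ADSCs (log2 0.74 ± 0.18, adjusted p = 0.00534), a call lost without mouse 2 in both groups (0.0681). Both iSEP groups overlapped the ADSCs in Cd151, with differences of -0.21 (adjusted p = 0.342) and 0.17 (adjusted p = 0.481).

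The 7 chains of leukocytes and platelets were low in all groups. Itgae, Itgal and Itgax did not pass 0.059 FPKM in any library. Itgam, the alpha chain of the macrophage and neutrophil receptor, was at 0.04, 0.791 and 0.1 FPKM in ADSCs and at most 0.042 elsewhere. Its partner Itgb2 was at 0.551, 1.34 and 0.252 in ADSCs, 0.206, 0.646 and 0.992 in the iSEPs made in vitro, 0.251, 0.209 and 0.143 in those made in vivo and 0.082, 0.219 and 0.187 in keratinocytes. For both genes the ADSCs of mouse 2 were the highest library. In that library the leukocyte markers Ptprc (0.457 FPKM), Csf1r (3.43), Tyrobp (5.97) and Laptm5 (1.43) were highest too. Cd68, another marker of the list, was at 0.751 to 3.05 FPKM in ADSCs, 8.09 to 22.3 in iSEPs and 2.29 to 3.70 in keratinocytes. The summed level of all 7 markers was 3.15 to 14.3 in ADSCs, 8.58 to 13.8 in in vitro iSEPs, 9.96 to 22.7 in in vivo iSEPs and 2.65 to 4 in keratinocytes, with Cd3e at 0 in all 12 libraries. Of the list, 4 of 7 reached 1 FPKM in an ADSC library, and the part of such cells in the integrin values was not tested. Of the exon bases of Itgam 74.2% also belong to the same-strand gene Gm49368.

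Itga2b, the platelet receptor chain, was between 0.39 and 1.71 FPKM in all libraries, and Itgb7, a lymphocyte homing chain, between 0.234 and 2.17. Neither was called in any of the 6 comparisons. The nearest was Itgb7 in in vitro iSEPs against ADSCs (log2 0.60, adjusted p = 0.0711), which was called without the in vitro iSEPs of mouse 1 (log2 0.85, adjusted p = 0.0155). Of 4 platelet genes Gp9 was at 0 in all 12 libraries and Pf4 at 0 in all iSEPs and at most 1.29 elsewhere. Gp1bb was at 2.46 to 11.5 in every library. Ppbp was at 147 to 227 in keratinocytes, 0.123 to 44.6 in in vivo iSEPs, 1.09 to 25.2 in in vitro iSEPs and 0.569 to 2.13 in ADSCs. The part of such cells in Itga2b was not tested.

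In vitro iSEPs and keratinocytes, both grown in the same kind of medium, differed less. With limma 0 of the 30 genes were higher in in vitro iSEPs (5.22% of all genes were) and 6 were lower (6.12%), and 11.3% of all genes were called in either direction. At an unadjusted p below 0.05, 4 were higher and 11 lower, beside 12.9% and 15.2% of all genes. The median difference was -0.15 over the 30 genes and -0.02 over all genes. The 6 lower genes were Itga6, Itgb4, Itga3, Itga2, Cd151 and Itgb8.

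Itgb4 was 1.82-fold lower in in vitro iSEPs than in keratinocytes (128 ± 33.2 against 233 ± 16.9 FPKM, log2 -0.89 ± 0.17, adjusted p = 0.00888). Itga6 was 1.65-fold lower (75.8 ± 21.5 against 125 ± 8.25, log2 -0.76 ± 0.18, adjusted p = 0.0222). Itga3 was 1.93-fold lower (89.1 ± 28.8 against 172 ± 40.6, log2 -0.97 ± 0.27, adjusted p = 0.0404), and with mice as a block in the model its adjusted p was 0.0519, and with no filter on low values, median scaling or the 2 groups alone 0.0668, 0.0549 and 0.0666. Cd151 was 1.95-fold lower (92.5 ± 12.5 against 179.9 ± 20.8, log2 -0.95 ± 0.18, adjusted p = 0.00877). Itga2 was 3.49-fold lower (6.4 ± 3.75 against 22.3 ± 4, log2 -1.80 ± 0.37, adjusted p = 0.0129). Itgb8 was at 0.192 ± 0.119 against 3.44 ± 0.512 FPKM (log2 -1.90 ± 0.33, adjusted p = 0.00557). In each of these 6 genes all in vitro iSEP libraries lay below all keratinocytes, as did 40.8% of all genes in one direction or the other.

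The in vitro iSEPs of mouse 3 were lowest in Itga6, Itga3, Itga2 and Cd151, but Itgb4 was lowest in mouse 1. The call of Itga3 was lost without mouse 1 or 3 of the in vitro iSEPs or the keratinocytes of mouse 2 or 3 (adjusted p = 0.0744 to 0.142). That of Itga6 was lost without any 1 keratinocyte library (0.0613 to 0.0771) or with the 2 groups alone (0.065), and that of Itga2 without the keratinocytes of mouse 1 (0.0514). With 1 mouse left out of both groups, each of the 6 calls was lost for at least 2 of the 3 mice (adjusted p = 0.0513 to 0.18), with the direction kept.

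None of the 9 laminin chains tested was called between in vitro iSEPs and keratinocytes. Lama3 was at 182 ± 58 against 283 ± 21.4 FPKM (log2 -0.68 ± 0.20, adjusted p = 0.0507), below all keratinocytes in all 3 cultures. Quantile normalization gave a call (adjusted p = 0.0269), as did leaving out mouse 2 from the in vitro iSEPs (0.0232). Lamb3 differed by -0.50 ± 0.23 (adjusted p = 0.195). Lamb2 was at 12.1 ± 4.86 against 4.18 ± 1.09 (log2 1.27 ± 0.40, adjusted p = 0.0614), and was called without the in vitro iSEPs of mouse 2 (log2 1.64, adjusted p = 0.0289). Itgb6 differed by -1.33 ± 0.44 (adjusted p = 0.0747), Itgb1 by -0.48 ± 0.20 (adjusted p = 0.151), Dst by 0.05 ± 0.20 (adjusted p = 0.91) and Plec by -0.04 ± 0.20 (adjusted p = 0.932). Itgb7 differed by 0.70 (adjusted p = 0.106), or 0.95 without the in vitro iSEPs of mouse 1 (adjusted p = 0.0406).

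**Figure D5:**
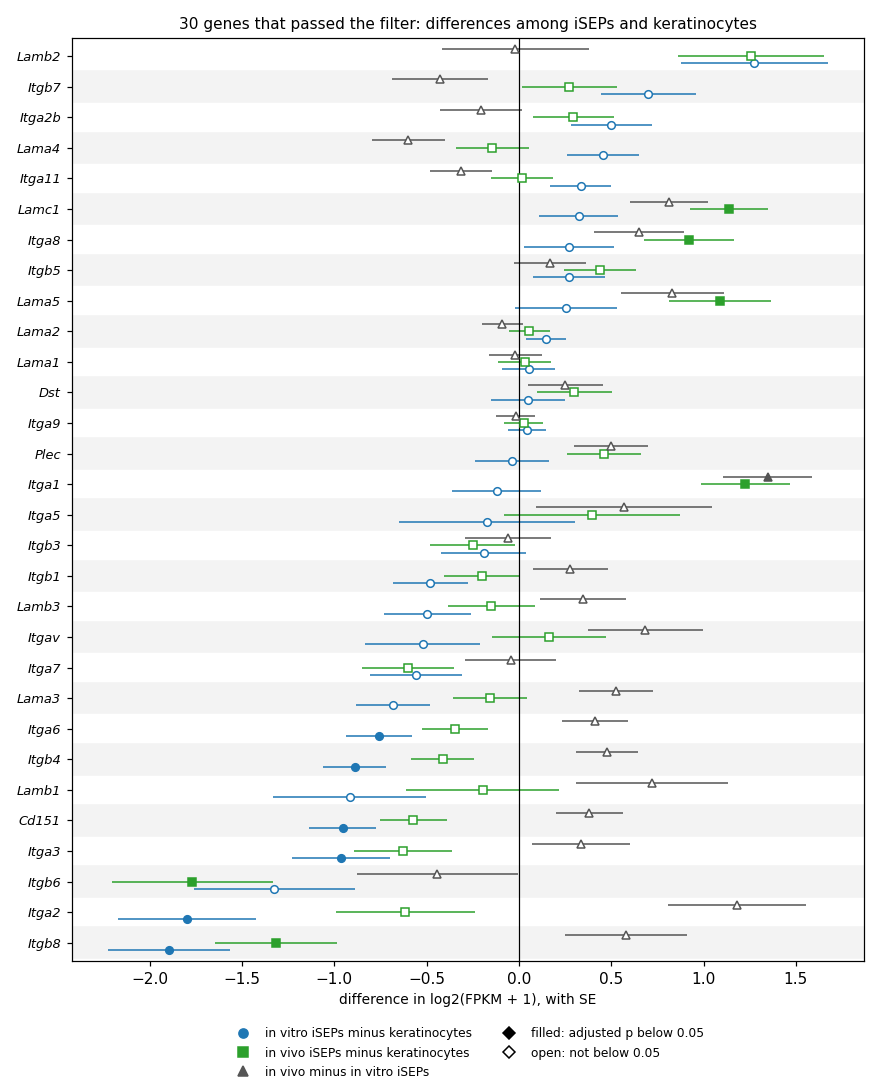
Differences in log2(FPKM + 1) on the x axis, with standard errors, among the 3 groups in keratinocyte medium for the 30 genes that passed the filter; circles are in vitro iSEPs minus keratinocytes, squares in vivo iSEPs minus keratinocytes and triangles in vivo minus in vitro iSEPs, and filled symbols have an adjusted p below 0.05. Itgb8, Itga2 and the laminin receptor chains lie to the left for in vitro iSEPs, and Itga1 lies to the right in both comparisons of in vivo iSEPs (1.23 and 1.35).

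In vivo iSEPs had 4 of the 30 genes higher than keratinocytes (3.41% of all genes were) and 2 lower (4.08%), and 7.48% of all genes were called in either direction. With median scaling the share of all calls that are higher changes from 45.5% to 56.5%. The median difference was 0.02 over the 30 genes and -0.05 over all genes. The higher genes were Itga1, Itga8, Lamc1 and Lama5, and the lower ones Itgb6 and Itgb8.

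Itga1 was 5.47-fold higher in in vivo iSEPs (2.33 ± 0.884 against 0.426 ± 0.406 FPKM, log2 1.23 ± 0.24, adjusted p = 0.0119), and 12.1-fold higher without the keratinocytes of mouse 1, the highest of their group. Lamc1 was 2.38-fold higher (35.1 ± 11.6 against 14.8 ± 0.878, log2 1.14 ± 0.21, adjusted p = 0.00948). Itga8 was at 1.1 ± 0.775 against 0.062 ± 0.0215 (log2 0.92 ± 0.24, adjusted p = 0.0437). These 3 genes did not overlap between the groups, nor did Itgb6 and Itgb8. Of the 30 genes 12 did not overlap, beside 27.8% of all genes. Lama5 was 2.2-fold higher (25.1 ± 7.69 against 11.4 ± 4.65, log2 1.09 ± 0.28, adjusted p = 0.0379), but its lowest in vivo iSEP value, 16.7 FPKM, did not exceed the keratinocytes of mouse 1. Itgb6 was 2.96-fold lower (22.2 ± 17.5 against 65.6 ± 5.78, log2 -1.77 ± 0.44, adjusted p = 0.0337), or 5.4-fold without the in vivo iSEPs of mouse 3, and Itgb8 at 1.01 ± 1.2 against 3.44 ± 0.512 (log2 -1.32 ± 0.33, adjusted p = 0.0367).

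Itga1 and Itga8 are also known from smooth muscle. The 5 smooth muscle and pericyte markers summed to 797.9 to 2951 FPKM in in vivo iSEPs and 183 to 438 in keratinocytes. Their sums were 358.6 to 564.2 in in vitro iSEPs and 1343 to 2779 in ADSCs. Of the 5 markers 2 reached 1 FPKM in an in vivo iSEP library, and nearly all of the sum was Acta2 (797.6, 2660 and 2943 in in vivo iSEPs). Myh11 was at 0.071, 1.9 and 7.78 there, Des at 0.031 to 0.097 and Rgs5 at 0 to 0.046. Their part in the result was not tested. Within the in vivo iSEPs Itga1 and Itga8 were highest in mouse 2, as were the markers Des (0.097 FPKM) and Cspg4 (0.21). The markers Acta2, Myh11 and Rgs5 were highest in mouse 3.

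With mice as a block 2 genes were higher and 1 lower: Itga8, Itgb8 and Lama5 lost their calls (adjusted p = 0.0579, 0.0528 and 0.0698). Without the in vivo iSEPs of mouse 3 Itgb6 differed by -2.35 (adjusted p = 0.000849), Itgb8 by -1.77 (0.000575), Itga1 by 1.23 (0.0167), Itga8 by 1.17 (0.0061), Lamc1 by 0.99 (0.016) and Lama5 by 0.90 (0.0714). In that setting Cd151 was lower (-0.79, adjusted p = 0.00451) and Dst higher (0.58, adjusted p = 0.0108), where with all libraries they differed by -0.57 (adjusted p = 0.0847) and 0.30 (adjusted p = 0.426).

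Fitted with these 2 groups alone, none of the 6 genes was called (adjusted p = 0.0738 to 0.159). Single libraries decided other calls. Itga1 was not called without the in vivo iSEPs of mouse 2 or the keratinocytes of mouse 2 or 3 (adjusted p = 0.0548 to 0.0645). Itgb6, Itgb8 and Itga8 were each not called without the in vivo iSEPs of mouse 1 or 2 or any 1 keratinocyte library (adjusted p = 0.0613 to 0.143, 0.0544 to 0.141 and 0.0522 to 0.152). Lama5 was not called without the in vivo iSEPs of mouse 2 or 3 or the keratinocytes of mouse 2 or 3 (0.0714 to 0.161). Lamc1 was called without any 1 library and lost its call without mouse 2 or 3 in both groups (0.327 and 0.111). Without the in vivo iSEPs of mouse 1 Lamb2 was called higher (1.67, adjusted p = 0.0138), and with all libraries it was at 12.6 ± 7.73 against 4.18 ± 1.09 FPKM (log2 1.26 ± 0.40, adjusted p = 0.0833).

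No hemidesmosome gene was called between in vivo iSEPs and keratinocytes with all libraries. Itgb4 differed by -0.41 ± 0.17 (adjusted p = 0.178) and Itga6 by -0.35 ± 0.18 (adjusted p = 0.292), each with all 3 in vivo iSEP values below all keratinocytes. Lama3 differed by -0.16 ± 0.20 (adjusted p = 0.704), Lamb3 by -0.15 ± 0.23 (adjusted p = 0.774), Plec by 0.46 ± 0.20 (adjusted p = 0.201) and Itgb1 by -0.20 ± 0.20 (adjusted p = 0.619).

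Between the iSEP groups 1 of the 30 genes was called, Itga1, and it was higher in in vivo iSEPs (0.679% of all genes were higher, 0.946% lower and 1.63% either way). Its values were 1.5, 3.26 and 2.23 against 0.177, 0.623 and 0.095 FPKM, with all 3 in vivo cultures above all 3 in vitro cultures, as 15.0% of all genes were apart (log2 1.35 ± 0.24, adjusted p = 0.0246). With mice as a block its adjusted p was 0.0504. The call also ended on leaving out the culture of mouse 2 among the in vivo iSEPs or of mouse 1 or 3 among the in vitro iSEPs (0.0588 to 0.113). Fitted with these 2 groups alone, the adjusted p was 0.237. The median difference was 0.34 over the 30 genes and -0.03 over all genes. At an unadjusted p below 0.05, 9 were higher and 1 lower, beside 6.47% and 8.45% of all genes.

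Among them were Lamc1 (log2 0.81 ± 0.21, adjusted p = 0.092), called without the in vivo iSEPs of mouse 1 (1.12, adjusted p = 0.00225), and Lama3 (0.53 ± 0.20, adjusted p = 0.236). Itgb4 differed by 0.48 ± 0.17 (adjusted p = 0.21), and by 0.66 without the in vitro iSEPs of mouse 2 (adjusted p = 0.0483). Itga6 differed by 0.41 ± 0.18 (adjusted p = 0.312), Lamb3 by 0.35 ± 0.23 (adjusted p = 0.548), Plec by 0.50 ± 0.20 (adjusted p = 0.263), Cd151 by 0.38 ± 0.18 (adjusted p = 0.361) and Itgb1 by 0.28 ± 0.20 (adjusted p = 0.583). Dst differed by 0.25 ± 0.20 (adjusted p = 0.629), and by 0.53 without the in vivo iSEPs of mouse 3 (adjusted p = 0.0456).

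The proteins that tie integrins to actin were read from a list of 20 adhesome genes, all of which passed the filter. Against ADSCs 4 rose and 12 fell in in vitro iSEPs, 5 rose and 7 fell in in vivo iSEPs, and 4 rose and 9 fell in keratinocytes. Over all genes 32.1% rose and 21.7% fell, 27.6% rose and 20.0% fell, and 32.8% rose and 20.7% fell in the same order. In in vivo iSEPs 4 fell without the ADSCs of mouse 2 and 3 without those of mouse 3. Tns4, an epithelial tensin, was at 0.192, 0.208 and 0.128 FPKM in ADSCs, 77.4, 81.8 and 56.7 in the iSEPs made in vitro, 89.4, 81.6 and 60.9 in those made in vivo and 116, 111 and 121 in keratinocytes (log2 5.94, 6.04 and 6.64, adjusted p = 3.33e-10, 3.47e-10 and 1.65e-10). The kindlins, which switch integrins on, changed in opposite directions against ADSCs. Fermt1, the kindlin of epidermis, was at 0.006, 0 and 0.007 FPKM in ADSCs, 9.44, 13.8 and 9.55 in the iSEPs made in vitro, 17.3, 11.8 and 21.2 in those made in vivo and 25, 21.5 and 24.5 in keratinocytes (log2 3.55, 4.11 and 4.62, adjusted p = 9.01e-08, 2.91e-08 and 1.1e-08). Fermt2, the kindlin of most other tissues, was at 105, 144 and 152, 9.23, 15.2 and 9.36, 20.4, 31.4 and 42.1 and 17.3, 19.9 and 20.3 in the same order (log2 -3.47, -2.10 and -2.73, adjusted p = 8.21e-07, 4.82e-05 and 5.48e-06). Fermt1 exceeded Fermt2 in all 3 keratinocyte libraries, and Fermt2 exceeded Fermt1 in all 3 in vivo iSEP libraries. In in vitro iSEPs the levels of Fermt1 and Fermt2 were close, with Fermt1 higher in mice 1 and 3 and Fermt2 in mouse 2.

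Pxn (paxillin) rose by 1.09, 1.42 and 0.93 on the log2 scale (adjusted p = 0.000858, 0.000139 and 0.00245). Tln2, a second talin, differed by -2.99, -2.49 and -2.56 (adjusted p = 2.74e-06, 1.33e-05 and 9.17e-06), and Tns1 was lower in keratinocytes (log2 -3.73, adjusted p = 0.000133). Lims2 was lower in in vitro iSEPs and in keratinocytes (log2 -2.85 and -2.58, adjusted p = 0.000395 and 0.000795). Tns2 was lower in in vivo iSEPs (log2 -2.50, adjusted p = 8.83e-06). In in vitro iSEPs against keratinocytes 4 of the 20 were lower, named here after their values were seen: Fermt1 (-1.07, adjusted p = 0.00823), Parva (-0.99, 0.0106), Tns4 (-0.70, 0.0198) and Lims1 (-0.58, 0.0143). Among in vivo iSEPs Ilk and Fermt3 were higher than in keratinocytes (0.70 and 0.88, adjusted p = 0.0321 and 0.0216) and Tns4 lower (-0.60, 0.0477). Between the iSEP groups Fermt2 was higher in vivo (1.37, adjusted p = 0.0281).

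Several of these calls were lost when 1 library was left out, and other calls were gained. Fermt1 and Parva stayed called in in vitro iSEPs against keratinocytes without any 1 of the 6 libraries. Tns4 was not called there when mouse 3 of the in vitro iSEPs or any 1 keratinocyte library was left out (adjusted p = 0.0611 to 0.073), nor was Lims1 without mouse 3 of the in vitro iSEPs or mouse 2 or 3 of the keratinocytes (0.0509 to 0.0729). For in vivo iSEPs against keratinocytes, Ilk and Tns4 were not called without mouse 2 or 3 of the in vivo iSEPs or any 1 keratinocyte library (0.0541 to 0.141 and 0.082 to 0.151). Fermt3 was not called without mouse 2 of the in vivo iSEPs or any 1 keratinocyte library (0.0639 to 0.0923). Fermt1 was lower there without mouse 3 of the in vivo iSEPs (-0.69, adjusted p = 0.0425), where with all libraries it differed by -0.51 (0.158). Fermt2 between the iSEP groups was not called without mouse 2 of the in vivo or mouse 1 or 3 of the in vitro iSEPs (0.0667 to 0.129). Tns1, which fell in in vivo iSEPs against ADSCs (-1.83, 0.0148), was not called without the ADSCs of mouse 3 (0.0555). Without mouse 1 of the in vivo iSEPs 8 of the 20 were higher there than in keratinocytes and 1 was lower. In that setting 1676 of all genes were called, and 925 with all libraries. Among the 8 were Tns1 (2.70, adjusted p = 0.000306) and Lims2 (1.81, 0.00107), which with all libraries differed by 1.90 (0.0556) and 1.10 (0.195). Also without that library, 7 of the 20 were higher in vivo than in vitro and 0 lower, beside 359 of all genes called.

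Of 20 other basement membrane and matrix ligand genes 18 passed the filter. Against ADSCs 6 rose and 9 fell in in vitro iSEPs, and 6 rose and 10 fell in each of in vivo iSEPs and keratinocytes, beside the shares of all genes given for the adhesome list. Agrn (agrin) was at 4.65 to 6.92 FPKM in ADSCs and above them in all epithelial libraries, with a log2 rise of 2.71 in keratinocytes (adjusted p = 8.5e-05). The collagens that anchor hemidesmosomes rose. Col17a1, a transmembrane partner of Itgb4, was at 0.607, 0.722 and 0.646 FPKM in ADSCs, 1129, 1023 and 886 in the iSEPs made in vitro, 856, 1075 and 787 in those made in vivo and 968, 774 and 775 in keratinocytes (log2 9.25, 9.08 and 8.98, adjusted p = 1.41e-11, 1.86e-11 and 2.08e-11). Col7a1, the anchoring fibril collagen, was at 3.74, 1.87 and 2.05, 70.1, 91.7 and 83.5, 91, 143 and 148 and 148, 84.5 and 87.9 (log2 4.57, 5.18 and 4.91, adjusted p = 1.23e-07, 4.53e-08 and 6.15e-08). Bcam, a laminin receptor outside the integrin family, was at 3.41, 6.15 and 6.54, 124, 84.4 and 40.2, 56.6, 127 and 84.7 and 25.8, 15.5 and 18 (log2 3.62, 3.79 and 1.71, adjusted p = 2.22e-05, 1.74e-05 and 0.0044).

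The nidogens, which bridge laminin and collagen networks, fell. Nid1 was at 249, 243 and 264 FPKM in ADSCs, 2.94, 6.86 and 5.63 in the iSEPs made in vitro, 1.4, 3.38 and 12.2 in those made in vivo and 3.8, 2.82 and 2.7 in keratinocytes (log2 -5.42, -5.61 and -5.95, adjusted p = 3.65e-06, 3.01e-06 and 1.69e-06). Nid2 was at 26.2, 13.7 and 23.2 in ADSCs and at most 0.034 elsewhere (log2 -4.39, -4.40 and -4.40). Fn1 (fibronectin), the ligand of Itga5, was at 2561, 1897 and 1654 FPKM in ADSCs, 82, 127 and 73.2 in the iSEPs made in vitro, 39.7, 75.9 and 1039 in those made in vivo and 62.1, 57 and 54.8 in keratinocytes (log2 -4.44, -3.76 and -5.09, adjusted p = 0.00148, 0.00479 and 0.000594). The in vivo iSEPs of mouse 3 were highest of the 9 in Fn1 and in Itga5, and without them Fn1 in in vivo iSEPs differed from ADSCs by -5.16 (adjusted p = 2.28e-07) and Nid1 by -6.29 (5.88e-08). Bcam was higher in in vitro iSEPs (log2 1.90, adjusted p = 0.0143) and in in vivo iSEPs (2.08, adjusted p = 0.0113) than in keratinocytes, and Col4a5 was higher in in vitro iSEPs (1.90, adjusted p = 0.0304). Without the keratinocytes of mouse 2 or 3 Bcam was not called in in vitro iSEPs (adjusted p = 0.0653 and 0.0547). In in vivo iSEPs it was not called without their library of mouse 2 or the keratinocytes of mouse 2 (0.0544 and 0.059). Col4a5 was not called without mouse 1 or 3 of the in vitro iSEPs or any 1 keratinocyte library (0.0726 to 0.096). Without mouse 1 of the in vivo iSEPs 4 of the 18 were higher there than in keratinocytes and 0 lower. Among the 4 was Col4a5 (2.09, adjusted p = 0.000168), which with all libraries differed by 1.33 (0.127).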

How the data were processed

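RNA was extracted with a Zymo column kit and sequenced from TruSeq RNA libraries, per the labels' protocols. The submitters' processing notes name FastQC 0.11.5, STAR 2.5.1b, HOMER and the build mm10. The authors deposited FPKM values per gene, made by HOMER from exons, with 1 transcript kept per gene, on the plus strand setting, per the file headers. The labels do not say whether the library kit marked strand. The table has 3 further columns of values that match no sample here and were not used. In each library 99.9 to 100% of low values were whole multiples of 1 read (tolerance 0.15), so depth could be recovered: 21020000 to 27780000 reads in listed genes.

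Genes at 1 FPKM or more in at least 3 libraries were kept (12364 of 24537). Group means of log2(FPKM + 1) over all 12 libraries were fitted with limma 3.58.1 (R 4.3.3) with a variance trend, and p-values were adjusted by Benjamini-Hochberg over all kept genes. The p-values measure the spread between cultures from 3 mice. On simulated data for keratinocytes against ADSCs (11973 genes tested), 47 of 47 and 50 of 50 genes changed by 2 on the log2 scale and 47 of 49 and 48 of 50 changed by 1 were called, with 9 false calls. The simulation gave every gene the same spread rule, with no mouse or library effects. It changed far fewer genes than the 53.5% called in the data, and only genes with enough expected reads. It therefore checks the code and does not give the error rates of the real tests. The labels tie each mouse to 1 culture per group. Deviations from group means correlated with a median of 0.045 within a mouse (-0.178 to 0.21) and -0.014 between mice.

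Genes named with full statistics are called ones whose groups do not overlap and whose higher mean is at least 5 FPKM, at most the 6 largest rises and 6 largest falls per comparison. To these were added Itga6, Itgb4, Lama3, Lamb3, Dst, Plec, Cd151 and Itgb1, and up to 3 rises and 3 falls of each partner list against ADSCs. Partner genes named in the other comparisons were outside this rule, as were some values of the named partner genes against ADSCs. The members and lists were chosen with earlier results of these data known. Alternatives were other pseudocounts, filters, scalings, array weights (gene-by-gene method), mouse blocks and leaving out libraries or mice. Promoters and their motif counts came from RefSeq (GRCm38.p6), and exon overlaps and gene spans from GENCODE.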

Additional observations from a re-analysis of the deposited data

How the results depend on the processing

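No called gene changed sign in any setting run. Of the genes called against ADSCs, 18 of 25 (in vitro iSEPs), 15 of 25 (in vivo iSEPs) and 16 of 24 (keratinocytes) were tested and called in every setting. A further 5 in each were called in every setting that tested them, and a filter at 5 FPKM left them untested. Of the 6, 6 and 1 called between in vitro iSEPs and keratinocytes, in vivo iSEPs and keratinocytes, and the iSEP groups, 0 were. The depth limits Itga11, Itga9, Lama2 and Itgb6, which had a few reads in their low groups.

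With a filter at 5 FPKM 9 genes were lower in keratinocytes than in ADSCs. In in vitro iSEPs against keratinocytes, 1 gene was higher with a pseudocount of 0.1, with no filter and with the 2 groups alone. Array weights gave 7 higher and 12 lower there, and 3751 of all genes. In in vivo iSEPs against keratinocytes, 1 was lower with a pseudocount of 0.1, a filter at 5 FPKM or quantile normalization and 0 with no filter. With the 2 groups alone 0 were higher and 0 lower (424 of all genes), and with array weights 8 and 7 (4189). With mice as a replicate block 2 were higher and 1 lower. Between the iSEP groups the 2 groups alone gave 0 higher (1 of all genes), the block 0 (128) and array weights 3 higher and 1 lower (743). The block changed no call other than those given beside the results. The cause of these shifts was not tested.

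Leaving out 1 library or 1 mouse gave 4295 to 6338 (in vitro iSEPs), 3486 to 6281 (in vivo iSEPs) and 3920 to 6322 (keratinocytes) of all genes called against ADSCs. The genes described here numbered 8 to 10, 10 to 11 and 9 to 11 higher and 15 to 16, 12 to 16 and 13 to 14 lower. Against keratinocytes, in vitro iSEPs had 193 to 1180 of all genes, with 0 to 1 of the 30 higher and 0 to 7 lower. In vivo iSEPs had 35 to 1676, with 0 to 5 higher and 0 to 3 lower. The iSEP groups differed in 2 to 360, with 0 to 2 higher and 0 to 0 lower. Without the in vivo iSEPs of mouse 3, 6281, 1609 and 360 of all genes were called in the comparisons of in vivo iSEPs with ADSCs, keratinocytes and in vitro iSEPs. Without those of mouse 1 the numbers were 5561, 1676 and 359. Leaving out mouse 1 or 2 of the in vitro iSEPs gave 1 gene higher there than in keratinocytes. In in vivo iSEPs against keratinocytes 0 genes were lower without mouse 1 or 2 of the in vivo iSEPs or any 1 keratinocyte library, and 1 was higher without the in vivo iSEPs of mouse 2 or the keratinocytes of mouse 2 or 3. Between the iSEP groups 2 were higher without mouse 1 or 3 of the in vivo or mouse 2 of the in vitro iSEPs, and 0 without mouse 2 of the in vivo or mouse 1 or 3 of the in vitro iSEPs. Leaving out libraries for the partner genes and for folds of mean FPKM was chosen after seeing the data.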
